A study of Mus musculus with 6 samples.

Results

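Insulin signalling and GLUT4 (Slc2a4) transcripts were examined in brown adipocytes that lack MICT1 and in their controls. The 10 genes are Insr, Irs1, Irs2, Pik3r1, Akt1, Akt2, Slc2a4, Foxo1, Tbc1d4 and Grb10, taken by symbol for their place in the route from the insulin receptor to glucose uptake. They were proposed with earlier results of these data known, so their counts below are descriptions. All 10 were found among the 13283 genes of the table, and all 10 passed the filter on low values. MICT1 is a microprotein (C16orf74 in humans), and the RNA-seq asks which transcripts differ when it is absent from stimulated brown adipocytes. Both groups derive from one immortalized mouse BAT line that stably expresses Cas9, so they carry the nuclease alike. The 3 Scr libraries come from cells given a scrambled single guide RNA (genotype WT in the labels), and the 3 MICT1 KO libraries from cells given guides against MICT1. All cells went through adipogenic differentiation in a cocktail that held insulin, dexamethasone and the PPARγ agonist rosiglitazone. On day 6 all were given 10 µM forskolin, which activates adenylyl cyclase, for 6 h. There was no group without forskolin and none in which insulin was varied. The knockout lines are pools, not clones, and which pool each MICT1 KO library came from is not given in the sources used here. No value of the targeted transcript was analysed here, and the labels could not be checked on it.

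Insulin binds its receptor, a tyrosine kinase, which phosphorylates the docking proteins IRS1 and IRS2. These recruit phosphoinositide 3-kinase (PI3K), whose lipid product brings AKT kinases to the membrane, where they are activated. AKT phosphorylates TBC1D4, which otherwise holds back the RAB proteins that carry GLUT4 vesicles to the cell surface, and FOXO1, which then leaves the nucleus. In brown fat, as in muscle and white fat, GLUT4 is the transporter behind insulin-stimulated glucose uptake.

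The values are read estimates that the authors scaled by one size factor a library, called normalized values below, and each library held between 15440309 and 17917646 estimated reads. Differences were tested with limma-trend on log2(value + 1) over 12507 genes with Benjamini-Hochberg adjustment, and a gene was called at an adjusted p under 0.05. The log2 fold changes are MICT1 KO minus Scr on that scale, where added pseudocounts shrink the differences of genes with few reads. The labels call the replicates separate samples without saying how they were grown, so the p-values measure the spread between these samples, which may be technical. These are transcript levels, and neither protein nor phosphorylation was measured in these libraries.

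Transcripts of the receptor, both docking proteins, Akt2, Foxo1 and GLUT4 were lower in MICT1 KO cells. So was Tbc1d4, which holds GLUT4 vesicles back, while Grb10, which dampens the receptor, and the kinase Akt1 were higher. Of the 10 genes, 7 were lower (Slc2a4, Irs1, Foxo1, Tbc1d4, Insr, Akt2 and Irs2), 2 were higher (Grb10 and Akt1) and 1 (Pik3r1) did not pass the threshold. Over all genes tested, 28.3% were called lower and 28.5% higher. A fall of at least 2-fold was called for 4 of the 10 (Slc2a4, Irs1, Foxo1 and Tbc1d4), and for 5.76% of all genes. The libraries of the 2 groups did not overlap for the 7 lower and the 2 higher genes, against 31.2% of all genes without overlap and lower and 30.9% without overlap and higher. The median log2 fold change was -0.88 over the 10 genes and -0.0053 over all genes tested.

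**Figure D1:**
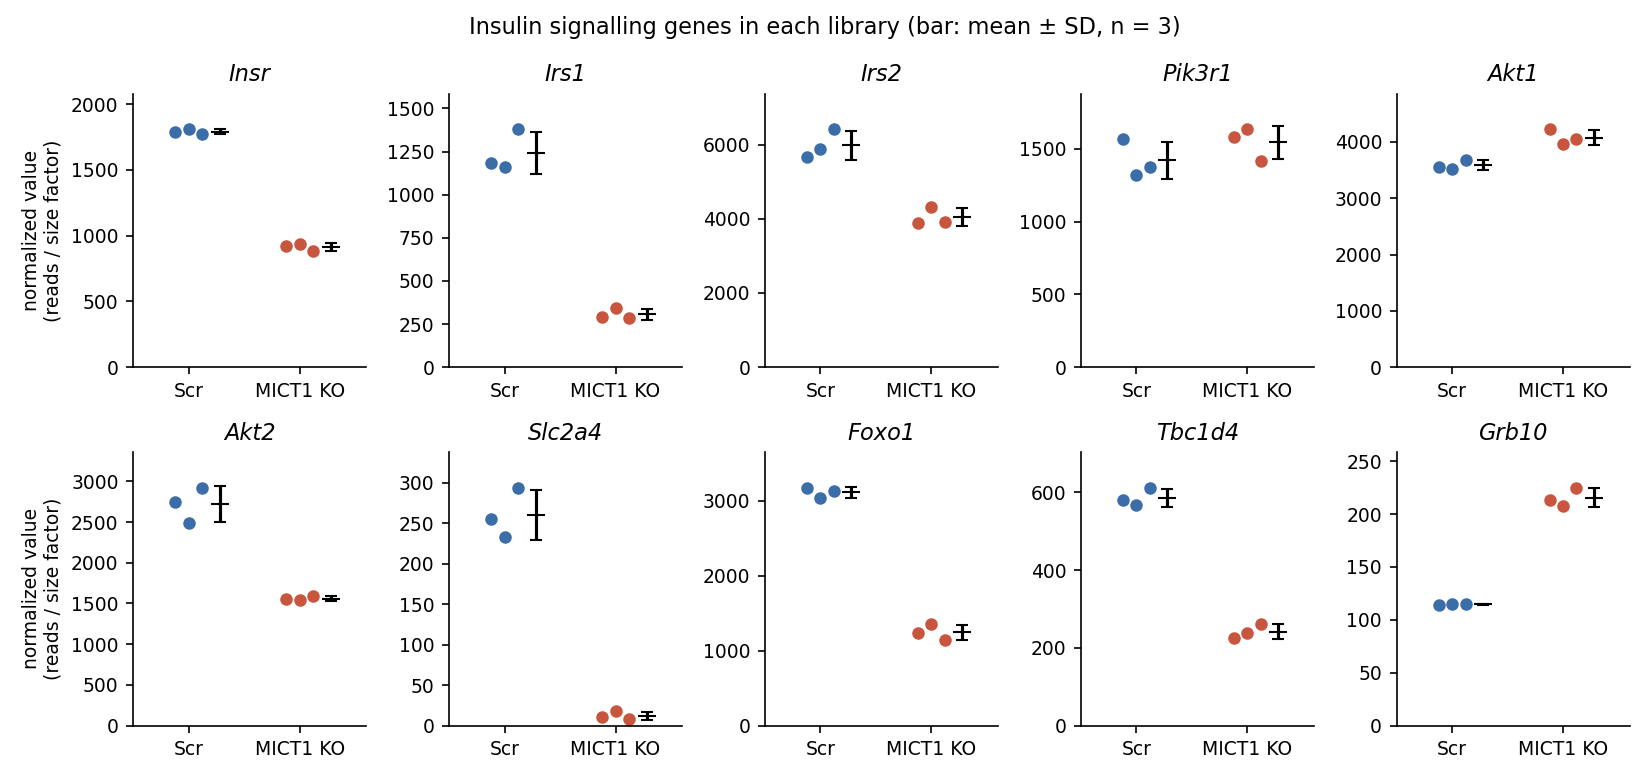
Normalized value (estimated reads divided by the size factor, linear axis from 0) of each of the 10 genes in each library, with 3 Scr libraries in blue and 3 MICT1 KO libraries in red, and the mean ± SD beside the points. Slc2a4 lay at 8.29 to 17.9 in MICT1 KO and at 233 to 294 in Scr libraries, Grb10 and Akt1 were higher in every MICT1 KO library, and the 2 groups overlapped for Pik3r1.

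**Figure D2:**
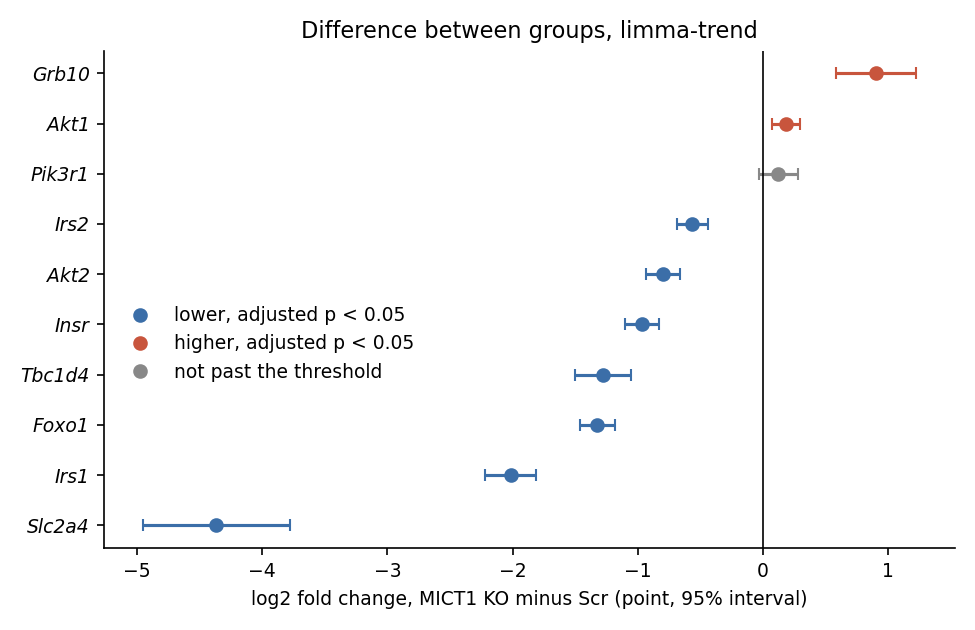
The log2 fold change, MICT1 KO minus Scr, of each of the 10 genes from limma-trend (points) with its 95% interval (bars). The fall of Slc2a4 (-4.37) was the largest of the 10 and the rise of Grb10 (0.90) the highest, while the interval of Pik3r1 crossed 0.

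For the genes with a called fall of at least 2-fold, the 250 bases upstream of a RefSeq start site on GRCm38 were taken, to show the promoter DNA of transcripts that fell together in cells under cAMP stimulation. Sequences were found for 8 of the 10 genes, and Slc2a4 and Insr were not among them. The motifs below were searched on both strands: the cAMP response element (CRE, TGACGTCA) and the shorter CRE half-site TGACG, the FOXO motif GTAAACA, the GC box GGGCGG, the E-box CACGTG, the C/EBP motif TTGCGCAA and the MEF2 core CTANNNNTA. Capitals mark every match, on either strand. Irs1 lies at chr1:82291440-82291689 on the minus strand, Foxo1 at chr3:52268087-52268336 on the plus strand and Tbc1d4 at chr14:101609192-101609441 on the minus strand, and each sequence reads 5′ to 3′ towards the start site. The Tbc1d4 window ends at a start inside the annotated gene, so that its last 90 bases lie within the gene bounds given below.
Irs1: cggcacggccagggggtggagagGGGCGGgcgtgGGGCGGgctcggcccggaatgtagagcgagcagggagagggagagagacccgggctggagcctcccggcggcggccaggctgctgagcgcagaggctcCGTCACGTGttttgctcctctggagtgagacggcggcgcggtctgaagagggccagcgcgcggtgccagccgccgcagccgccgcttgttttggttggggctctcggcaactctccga
Foxo1: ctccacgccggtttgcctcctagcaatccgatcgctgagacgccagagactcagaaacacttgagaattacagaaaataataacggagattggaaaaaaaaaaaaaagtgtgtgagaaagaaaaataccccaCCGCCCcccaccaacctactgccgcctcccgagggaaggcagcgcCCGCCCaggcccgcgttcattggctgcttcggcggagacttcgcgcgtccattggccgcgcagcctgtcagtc
Tbc1d4: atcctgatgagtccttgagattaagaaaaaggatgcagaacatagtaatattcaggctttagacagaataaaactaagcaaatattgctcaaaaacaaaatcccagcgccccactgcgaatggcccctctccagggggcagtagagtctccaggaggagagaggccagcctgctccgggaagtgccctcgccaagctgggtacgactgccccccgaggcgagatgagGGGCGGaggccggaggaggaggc

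The Irs1 window held 2 GC boxes and, near its middle, 1 CRE half-site on the reverse strand whose last bases overlap 1 E-box. The Foxo1 window held 2 GC boxes, both on the reverse strand, and the Tbc1d4 window 1, in the stretch within the gene bounds. Among all 32851 RefSeq promoter windows of this length, 32.7% held a GC box, 17.8% the CRE half-site and 6.02% the E-box. No window of the 8 genes held the full CRE, which 1.55% of all windows held, or the C/EBP motif, which 0.164% held. The FOXO motif was found in 1 of the windows of Akt1, and in 3.17% of all windows. GC content was 72.4% for Irs1, 56.0% for Foxo1 and 54.8% for Tbc1d4, with a median of 52.4% over all windows. A match is a description of the letters and not a binding site, and the absence of a match speaks only of these windows.

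At the cell surface, the insulin receptor transcript was about 2-fold lower. Insr (chr8:3150922-3279649, as all gene positions here from RefSeq on GRCm38) had normalized values of 1787, 1810.4 and 1775 in Scr cells, against 923, 940 and 883 in the MICT1 KO libraries. Each MICT1 KO library was far below each Scr library, and the spread within a group was small. The mean was 1791 ± 18.1 (SD, n = 3) in Scr cells against 915 ± 29.1 in MICT1 KO cells, 51.1% of Scr, with a log2 fold change of -0.97 (SE 0.065, adjusted p = 6.38e-11, limma-trend).

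Grb10, an adaptor that binds the active receptor and dampens its signal, moved in the other direction. Grb10 (chr11:11930499-12037428) had values of 114, 115 and 115 in Scr cells, against 214, 208 and 225 in MICT1 KO libraries. The 3 MICT1 KO libraries were all higher, and the Scr libraries were nearly identical. The MICT1 KO mean of 215 ± 8.82 (SD, n = 3) was 188% of the Scr mean of 115 ± 0.705, with a log2 fold change of 0.90 (SE 0.15, adjusted p = 3.61e-05, limma-trend). Grb10 is imprinted, and these values do not separate its alleles. On the scale per exon length it was the lowest of the 10 genes in Scr cells, at 0.770 RPKM.

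Both docking protein transcripts were lower, with the larger log2 fold change for Irs1. Irs1 (chr1:82233105-82291439) had values of 1184, 1162 and 1379.8 in Scr cells, against 293, 343 and 283 in MICT1 KO libraries. Scr replicate 3 was the highest of its group, and the highest MICT1 KO library lay well under the lowest Scr library. The mean in MICT1 KO cells, 306 ± 32.5 (SD, n = 3), was 24.7% of the Scr mean of 1242 ± 120.1, and the 95% interval of the log2 fold change ran from -2.22 to -1.81 around -2.02 (adjusted p = 2.52e-13, limma-trend).

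Irs2 (chr8:10984681-11008929) had values of 5652, 5877 and 6414 in Scr cells, against 3884, 4328 and 3914 in MICT1 KO libraries. The groups did not overlap, but the gap was smaller than for Irs1. Irs2 in MICT1 KO cells, at 4042 ± 248 (SD, n = 3), was 67.6% of the Scr mean of 5981 ± 392, with a log2 fold change of -0.56 (SE 0.060, adjusted p = 7.83e-08, limma-trend). The annotated exons of Irs1, Irs2 and Foxo1 each overlap a gene on the opposite strand, and whether reads were counted by strand is not given in the sources used here.

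The transcript of a PI3K regulatory subunit was the only member of the 10 that did not pass the threshold. Pik3r1 (chr13:101680761-101768217), whose products tie the catalytic subunits of PI3K to IRS proteins, had values of 1565, 1320.0 and 1376 in Scr cells, against 1579.7, 1635 and 1418 in MICT1 KO libraries. The groups overlapped, since Scr replicate 1 was above MICT1 KO replicate 3. The log2 fold change was 0.12 (95% interval -0.034 to 0.28, adjusted p = 0.175, limma-trend). Without Scr replicate 1 it was 0.19 with an adjusted p of 0.0476 by limma-trend, past the threshold, so that 1 library decides this call.

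The 2 AKT isoforms moved in opposite directions. Akt2 (chr7:27591552-27640826), the isoform most tied to glucose uptake in fat and muscle, had values of 2747, 2483 and 2921 in Scr cells, against 1555, 1537 and 1589 in MICT1 KO libraries. All MICT1 KO libraries were lower, and they were close to each other. Akt2 in MICT1 KO cells was 57.4% of Scr, at 1560.4 ± 26.3 against 2717 ± 220.5 (SD, n = 3), with a log2 fold change of -0.80 (SE 0.065, adjusted p = 1.35e-09, limma-trend).

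Akt1 (chr12:112653821-112674884), the isoform more tied to growth and survival, had values of 3549.8, 3526 and 3683 in Scr cells, against 4226, 3958 and 4045 in MICT1 KO libraries. Every MICT1 KO library was higher than every Scr library, by a small margin. The log2 fold change was 0.18 (95% interval 0.072 to 0.30, adjusted p = 0.00633, limma-trend), from 3586 ± 84.3 to 4076 ± 137 (SD, n = 3).

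Downstream of AKT, the substrates Tbc1d4 and Foxo1 were both lower. Tbc1d4 (chr14:101442360-101609281), the RAB GTPase-activating protein that AKT switches off, had values of 580, 566 and 612 in Scr cells, against 224, 239 and 261 in MICT1 KO libraries. The groups were well separated. Tbc1d4 in MICT1 KO cells was 41.2% of Scr, at 241 ± 18.7 against 586 ± 23.2 (SD, n = 3), with a log2 fold change of -1.28 (SE 0.11, adjusted p = 1.91e-09, limma-trend).

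Foxo1 (chr3:52268337-52350109), the transcription factor that AKT keeps out of the nucleus, had values of 3172, 3029 and 3130.1 in Scr cells, against 1240.3, 1351 and 1144 in MICT1 KO libraries. The highest MICT1 KO library was still below every Scr library by a wide margin. The mean fell from 3110.5 ± 73.3 to 1245 ± 103 (SD, n = 3), which is 40.0% of Scr, with a log2 fold change of -1.32 (SE 0.066, adjusted p = 4.21e-13, limma-trend).

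GLUT4, the end point of the route, showed the largest difference of the 10. Slc2a4 (chr11:69942286-69948216) had values of 255, 233 and 294 in Scr cells, against 10.5, 17.9 and 8.29 in MICT1 KO libraries. The MICT1 KO libraries were near the filter of 10, and 1 of them lay below it, so the gene would have passed on its Scr libraries alone. The mean was 261 ± 31.1 (SD, n = 3) in Scr cells against 12.2 ± 5.04 in MICT1 KO cells, a 21.3-fold difference of means. The log2 fold change was -4.37 (SE 0.28, adjusted p = 3.04e-11, limma-trend), the 26th lowest of 12507, and it was -3.98 with a pseudocount of 5. With so few reads in MICT1 KO cells the size of the fall is less certain than its direction, and leaving out 1 library at a time gave -4.66 to -4.14.

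Slc2a4 is itself a marker of mature fat cells, so the differentiation markers are given beside it. Of the 11 adipocyte markers listed, 10 were tested and all 10 were lower by at least 2-fold, with log2 fold changes from -6.66 for Adipoq (adiponectin) to -2.44 for Lpl (lipoprotein lipase). Their summed normalized value was 132131 to 154384 in Scr cells against 14484 to 21186 in MICT1 KO libraries, several-fold lower. Fabp4 (mean 53343) and Lpl (mean 55039) made up most of the Scr sum, whereas the Scr mean of Adipoq was 624. The brown fat marker Ucp1 was low in both groups, at 25.1 ± 4.96 in Scr cells against 4.10 ± 4.55 (SD, n = 3) in MICT1 KO cells, and Cidea was not analysed here. The fall of Slc2a4 was smaller than that of 3 of the 10 markers, and each of the other 6 genes that fell did so by less than every one of the 10. MICT1 KO replicate 2 had the highest Slc2a4 of its group and the lowest summed adipocyte markers. At Slc2a4 values of 10.5, 17.9 and 8.29 the order of the MICT1 KO libraries is imprecise, and nothing is read from it. In bulk samples fewer adipocytes and less RNA per adipocyte cannot be told apart, and the part of differentiation in the values of the insulin genes was not tested.

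Markers of other cell types were also read. Of 7 preadipocyte markers 5 were tested, several at levels like those of the insulin genes. By log2 fold change Ly6a (1.39), Pdgfrb (0.48) and Cd24a (0.30) were higher, and Dlk1 (-3.47) and Pdgfra (-0.19) lower. The summed value, 5568 to 6220.4 in Scr cells against 6157 to 6580.0 in MICT1 KO libraries, does not show these opposite moves. Of 10 macrophage markers 4 were tested, and of these Cd14 was higher and 3 were not called. Cd14 was at 192 ± 54.8 in Scr cells against 444 ± 49.8 (SD, n = 3) in MICT1 KO cells. The summed value, 267 to 384 in Scr cells against 516 to 638 in MICT1 KO libraries, mostly follows this 1 gene. The endothelial marker Cdh5, the only one of 6 tested, was at 8.71 ± 3.10 in Scr cells against 29.9 ± 3.76 (SD, n = 3) in MICT1 KO cells. Of 9 muscle markers 2 were tested and neither was called, with a summed value of 62.1 to 77.1 in Scr cells against 54.8 to 94.4 in MICT1 KO libraries. The part of other cells in the insulin genes was not tested.

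Levels between genes were compared per exon length, as RPKM. In Scr cells Irs2 was the most abundant of the 10, at 57.8 ± 3.57 RPKM (SD, n = 3), followed by Akt1 at 53.5 ± 1.55. Akt2 (23.3) and Foxo1 (21.9) came next and did not differ beyond their spread. Nor did Pik3r1 (8.62), Irs1 (8.30) and Insr (7.96), each against the next in the order, or Tbc1d4 (4.66) and Slc2a4 (4.58). In MICT1 KO cells Akt1 was first at 60.9 ± 1.71 RPKM and Irs2 second at 39.2 ± 2.52. Akt2 followed at 13.4, then Pik3r1 (9.39) and Foxo1 (8.81), which overlapped, Insr at 4.08, and Irs1 (2.05) and Tbc1d4 (1.93), which also overlapped. Grb10, last in Scr cells, was above Slc2a4 in every MICT1 KO library, at 1.45 ± 0.0630 against 0.216 ± 0.0893 RPKM.

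**Figure D3:**
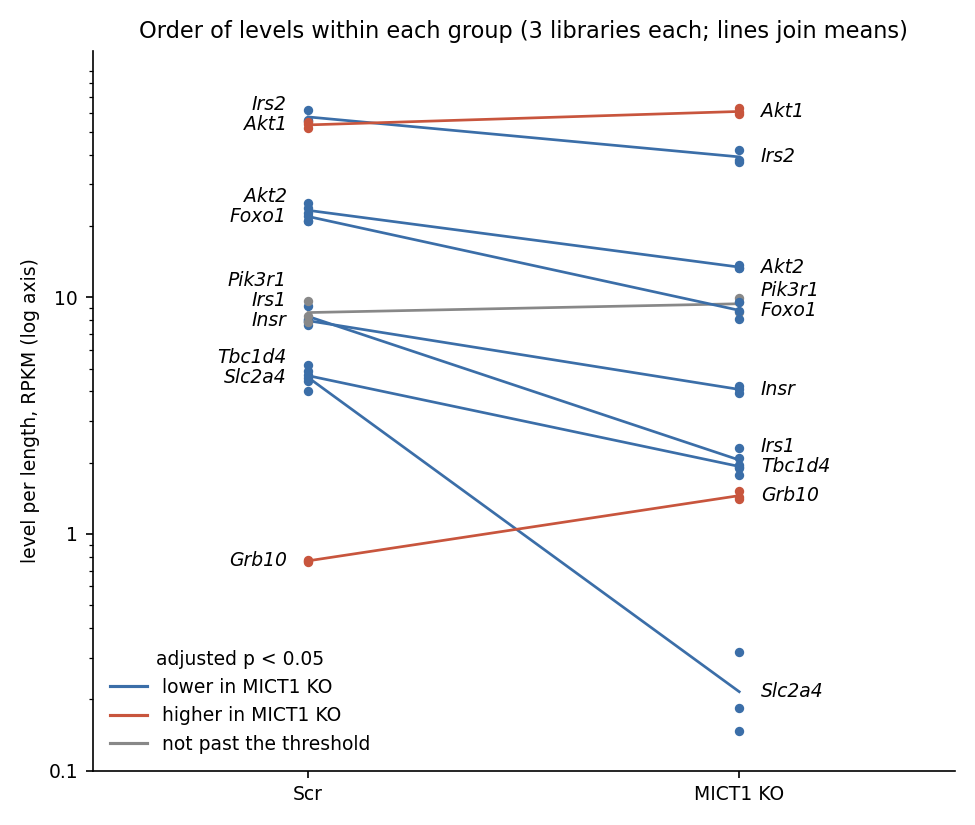
Level of each of the 10 genes per exon length (RPKM, log axis) in the 3 Scr and 3 MICT1 KO libraries (points), with lines between the group means coloured by the limma-trend call. Akt1 and Irs2 exchanged the first place, and Slc2a4 fell from 4.58 to 0.216 RPKM, below Grb10.

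The balance within pairs of related genes did not overlap between the groups for most pairs. The first genes of these pairs, Irs1, Akt2, Slc2a4, Tbc1d4 and Insr, did not overlap on their own either. Among all single genes tested, 31.2% were without overlap and lower, and 30.9% without overlap and higher. Per length, the ratio of Irs1 to Irs2 was 0.145, 0.137 and 0.149 in Scr cells against 0.0521, 0.0549 and 0.04999 in MICT1 KO libraries. Irs1 thus made up 12.5% ± 0.473 of the Irs1 and Irs2 transcripts in Scr cells against 4.97% ± 0.221 (SD, n = 3) in MICT1 KO cells. Their sum was 66.1 ± 4.36 RPKM in Scr cells against 41.2 ± 2.74 RPKM in MICT1 KO cells, with no overlap. The ratio of Akt2 to Akt1 was 0.445, 0.405 and 0.456 in Scr cells against 0.211, 0.223 and 0.226 in MICT1 KO libraries. Akt2 made up 30.3% ± 1.32 of the pair in Scr cells against 18.0% ± 0.516 in MICT1 KO cells. Unlike the sum of the IRS pair, the sum of Akt1 and Akt2 overlapped between the groups, at 76.8 ± 3.64 RPKM in Scr cells against 74.4 ± 1.72 RPKM (SD, n = 3) in MICT1 KO cells.

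The partners of the other pairs moved in either direction. Igf1r, the closely related IGF1 receptor, was higher in MICT1 KO cells (770 ± 132 to 1084 ± 102, log2 fold change 0.50, adjusted p = 2.33e-04, limma-trend), and the per-length ratio of Insr to Igf1r went from 2.89 ± 0.473 to 1.04 ± 0.101 (SD, n = 3). Slc2a1, which encodes the basal glucose transporter GLUT1, was lower (12738 ± 848 to 8407 ± 334, log2 fold change -0.60, adjusted p = 1.34e-08, limma-trend). Slc2a4 made up 2.03% ± 0.314 of the GLUT1 and GLUT4 transcripts in Scr cells against 0.148% ± 0.0665 in MICT1 KO cells. Tbc1d1, the paralogue of Tbc1d4, was slightly higher (log2 fold change 0.21, adjusted p = 0.00769, limma-trend), and the ratio of Tbc1d4 to Tbc1d1 went from 0.344 ± 0.0349 to 0.122 ± 0.0103. The catalytic subunit Pik3ca was not called (log2 fold change -0.07, adjusted p = 0.385, limma-trend), and the ratio of Pik3r1 to Pik3ca overlapped between the groups, at 0.761 ± 0.0413 and 0.869 ± 0.0713.

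The ratios were compared with a two-sided exact permutation test of their log2 values, which cannot give a p below 0.1 with 3 against 3 libraries. For 5 of the 6 pairs the groups did not overlap and the exact p was 0.1 (0.12 adjusted over the 6 pairs), the smallest the design allows. How often other gene pairs separate was not computed. For Pik3r1 to Pik3ca the exact permutation p was 0.2. The differences in log2 ratio were -3.89 for Slc2a4 to Slc2a1, -1.49 for Tbc1d4 to Tbc1d1, -1.47 for Insr to Igf1r, -1.45 for Irs1 to Irs2, -0.98 for Akt2 to Akt1 and 0.19 for Pik3r1 to Pik3ca. None of the ratios passes a threshold of 0.05 in this design.

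**Figure D4:**
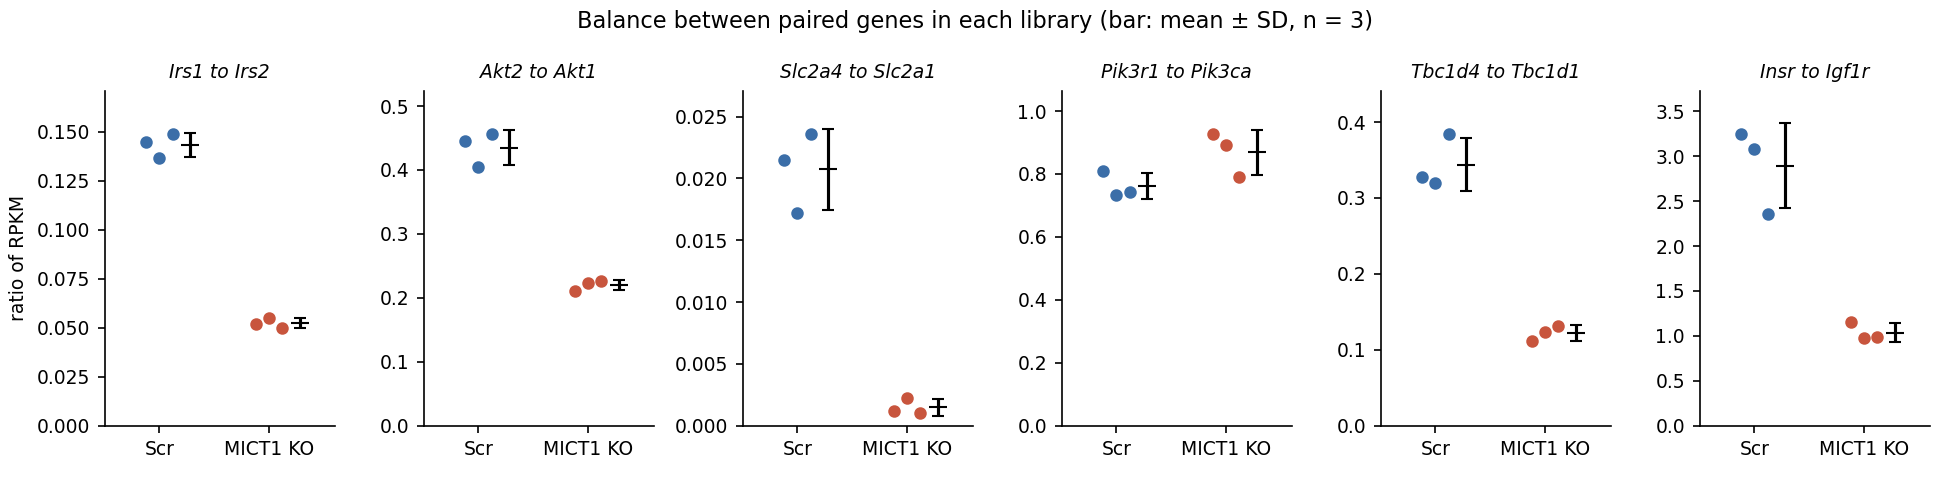
Ratio of RPKM between paired genes in each library (linear axes from 0), with 3 Scr libraries in blue, 3 MICT1 KO libraries in red and the mean ± SD beside the points. The groups separate for every pair other than Pik3r1 to Pik3ca, and the ratio of Insr to Igf1r goes from 2.89 to 1.04.

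The wider insulin pathway was read from 6 lists of other genes, 92 in all, of which 85 were tested. Of these, 41 were lower, 17 higher and 27 not called, and their median log2 fold change was -0.12, where that of all genes tested was -0.0053. Over all genes, 28.3% were called lower and 28.5% higher, as given above.

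Of 14 tested adaptors and brakes of the receptor, 8 were lower, 2 higher and 4 not called (median -0.23), and without Scr replicate 3 the number lower was 5. Sh2b2, an adaptor that links the receptor to CBL, fell from 1422 ± 52.3 to 803 ± 55.2 (SD, n = 3), with a log2 difference of -0.82 (adjusted p = 5.23e-09, limma-trend). Ptpn1 (-0.46), a phosphatase that acts on the insulin receptor, and the cytokine-signalling suppressor Socs3 (-0.39) were also lower. Socs1, a relative of Socs3, rose from 107 ± 14.3 to 235 ± 8.27, a log2 fold change of 1.13 (adjusted p = 3.89e-06, limma-trend). The docking protein Gab1 was higher (0.39). Cbl was lower by 0.40 on the log2 scale (adjusted p = 0.0162, limma-trend), but its groups overlapped and the call was lost without Scr replicate 3 (adjusted p = 0.0940) or MICT1 KO replicate 1 (adjusted p = 0.114). Irs3, Irs4 and Grb7 were not analysed here.

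Of 19 kinases and phosphatases between the docking proteins and AKT, 6 were lower, 6 higher and 7 not called (median -0.065). Trib1 (-1.20), a pseudokinase, Pik3cb (-0.85), a catalytic subunit, and Rictor (-0.48), which defines mTORC2, were lower. The catalytic subunit Pik3cd rose by 1.83 from the low value of 21.7 ± 4.85 to 78.8 ± 12.6. The other regulatory subunits, Pik3r2 (0.38) and Pik3r3 (0.51), were both higher, where Pik3r1 itself was not called.

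Of 20 genes of GLUT4 vesicle traffic, 8 were lower, 4 higher and 8 not called (median -0.061). Sort1 encodes sortilin, a sorting receptor of the GLUT4 storage compartment, and had values of 1299, 1339.5 and 1514 in Scr cells, against 110, 134 and 130 in MICT1 KO libraries. Every MICT1 KO library was below every Scr library by a wide margin. Its log2 fold change was -3.47 (SE 0.11, adjusted p = 2.48e-16, limma-trend). Ralgapa2 (-0.73) and Ralgapb (-0.43), subunits of the complex that holds RAL GTPases inactive, were lower. The syntaxin-binding Stxbp3 (0.56), the small GTPase Rhoq (0.46), the motor Myo1c (0.41) and Tbc1d1 (0.21) were higher. The membrane fusion proteins Vamp2, Stx4a and Snap23 were not called, with log2 fold changes of 0.17, 0.17 and 0.12.

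Of 16 tested AKT substrates and genes of the growth arm, 9 were lower, 1 was higher and 6 were not called (median -0.36). Pde3b, the phosphodiesterase through which insulin lowers cAMP in fat cells, fell from 3984 ± 380 to 2157 ± 129 (SD, n = 3), with a log2 difference of -0.88 (adjusted p = 4.92e-10, limma-trend). Gys1, glycogen synthase, fell from 5739 ± 382 to 3200.2 ± 282, a log2 fold change of -0.84 (adjusted p = 6.37e-10, limma-trend). The FOXO1 relative Foxo4 (-0.70) and Rptor (-0.53), the scaffold of mTORC1, were lower, while Foxo3 was not called (-0.04, adjusted p = 0.593, limma-trend). The cell death regulator Bad was the one gene higher (0.44).

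Of 8 tested genes known to be induced by FOXO factors, 4 were lower, 3 higher and 1 not called (median -0.067), so this list had no common direction. Klf15, a transcription factor, fell from 123 ± 5.16 to 25.4 ± 4.55 (log2 fold change -2.24), and Bcl6 (-1.13) and the pyruvate dehydrogenase kinase Pdk4 (-0.87) were lower. Txnip, which restrains glucose uptake, rose from 7543 ± 719 to 19305 ± 1341 (SD, n = 3), with a log2 difference of 1.36 (adjusted p = 2.27e-13, limma-trend). The sestrins Sesn3 (0.53) and Sesn1 (0.47) were higher. The call of Sesn3, whose groups overlapped, was lost without Scr replicate 2 (adjusted p = 0.115), Scr replicate 3 (0.0725) or MICT1 KO replicate 2 (0.0967). That of Cdkn1b (-0.14, adjusted p = 0.0449, limma-trend) was lost without Scr replicate 2 (adjusted p = 0.160), Scr replicate 3 (0.0920) or MICT1 KO replicate 1 (0.171), and with library size scaling (0.0506). Pck1, G6pc and Igfbp1 were not analysed here.

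Of 9 transcription regulators known to act on the Slc2a4 gene, 7 were lower, 1 higher and 1 not called, and the median log2 fold change of -1.21 was the lowest of the 6 lists. Cebpa fell from 8019 ± 1353 to 991 ± 148 (SD, n = 3), with a log2 difference of -3.01 (adjusted p = 4.61e-16, limma-trend), and Pparg from 3742 ± 467 to 754 ± 66.7, a log2 fold change of -2.31. Both also drive adipocyte differentiation. The liver X receptor Nr1h3 fell from 252 ± 27.5 to 30.1 ± 5.40 (log2 fold change -3.03), Srebf1 by 1.21 on the log2 scale, and Klf15, shared with the FOXO list, by 2.24. Of the MEF2 factors, Mef2d was lower (-0.36), Mef2a was not called (-0.12, adjusted p = 0.123, limma-trend), and Mef2c was the one gene higher. Mef2c had values of only 5.09 ± 4.69 in Scr cells against 19.0 ± 6.14 in MICT1 KO cells, and without Scr replicate 1 or MICT1 KO replicate 1 the number higher was 0.

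**Figure D5:**
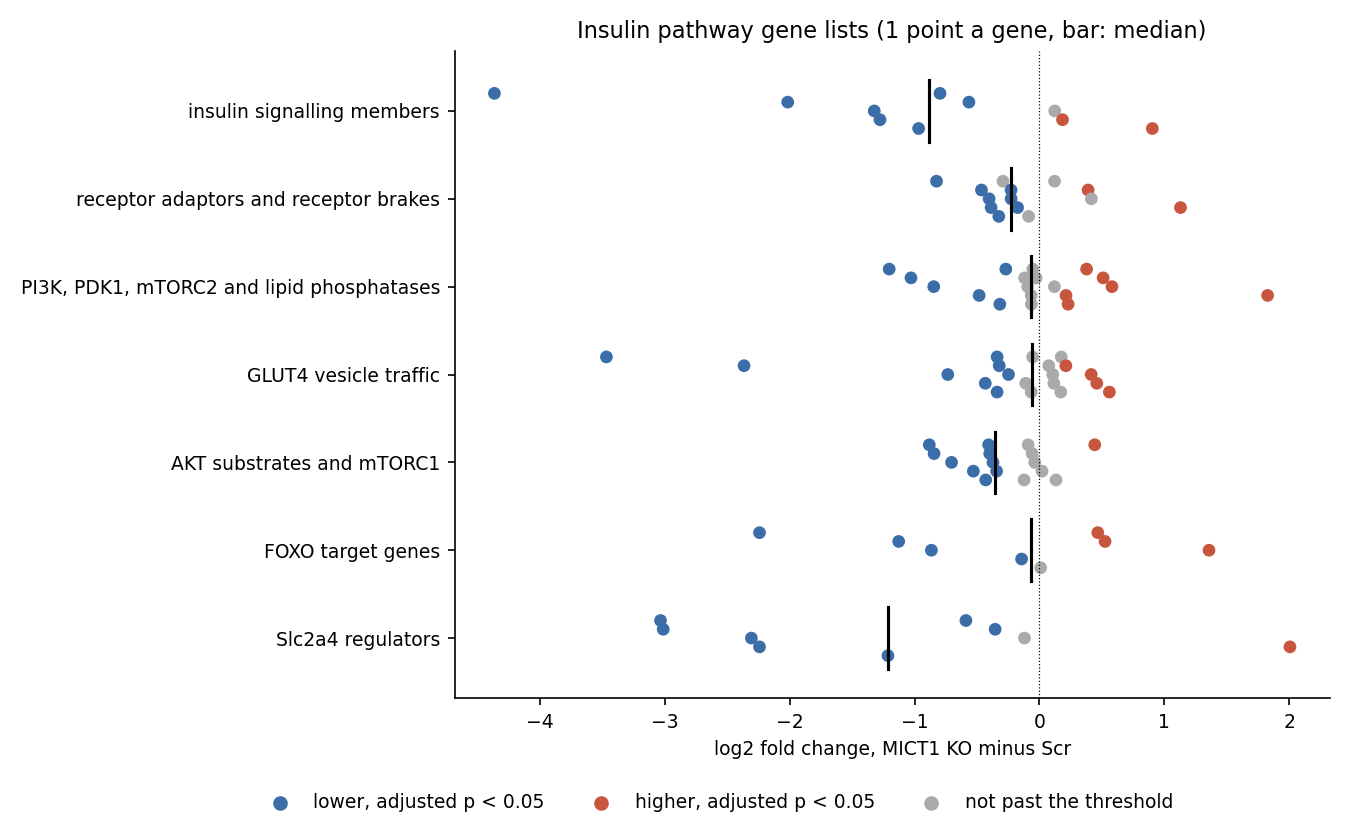
The log2 fold change, MICT1 KO minus Scr, of the 10 genes (top row) and of the tested genes of the 6 other lists, 1 point a gene coloured by the limma-trend call, with a black bar at the median of each row. The medians of the 10 genes (-0.88) and of the Slc2a4 regulators (-1.21) lie farthest below 0, and Sort1 (-3.47) has the lowest value among the GLUT4 traffic genes.

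The genes whose profile over the 6 libraries was nearest to that of Irs1 and of Slc2a4 were found by the root mean square difference of log2(value + 1), after each gene was centred on its own mean. For Irs1 these were Ephx2 (0.0787), which encodes soluble epoxide hydrolase, Vill (0.0843) and C9orf72 (0.0900). For Slc2a4 they were Trim67 (0.245), Ppargc1b (0.256), which encodes the transcriptional coactivator PGC-1β, and Mtss1 (0.340). Ppargc1b had values of 494, 422 and 419 in Scr cells, against 19.1, 30.6 and 22.8 in MICT1 KO libraries, close to those of Slc2a4 in shape though higher in level. All of these profiles share the same 6 libraries and are dominated by the difference between the groups.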

How the data were processed

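RNA-seq was measured in 3 Scr and 3 MICT1 KO libraries, grouped by the genotype in the labels. The authors deposited a signal per gene, which the values show to be estimated reads divided by a size factor per library. The notes submitted with the samples name Partek, STAR, DESeq2 and the build GRCm38 (mm10), without versions or roles. The gene annotation, the counting model and the use of strand are not given in the sources used here. All genes listed are above 0 in every library. Labels and methods describe library preparation differently.

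From the deposited signal, log2(value + 1) was tested with limma 3.58.1 (limma-trend, R 4.3.3), with a filter of at least 10 in at least 3 libraries, Benjamini-Hochberg adjustment over 12507 genes and no covariate. The functions were tested on simulated data first. RPKM used the sum of values of a library and GENCODE vM21 exon lengths, found for 12937 genes (97.4%). Ratios were tested with exact permutation tests (scipy 1.17.1). The depth was 15440309 to 17917646 estimated reads per library, so genes of about 10 reads, as Slc2a4 in MICT1 KO, are imprecise.

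The 10 genes and all lists were chosen with earlier results of these data known. Other genes were named as the up to 4 largest falls and rises of each list with a mean of at least 50, the ratio partners, the exceptions, and the 3 nearest profiles of Irs1 and Slc2a4. Some genes that the rule selects are counted in their lists but not reported here by name. Alternatives were library size scaling, pseudocounts of 0.5 and 5, no filter, a maximum RPKM of at least 4, limma-voom, the replicate number as a block, and each library left out.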

Additional observations from a re-analysis of the deposited data

How the results depend on the processing

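The 7 falls and the rises of Akt1 and Grb10 were called in each setting that tested the gene. The number of the 10 genes called higher was 1 with a maximum RPKM of at least 4, because Grb10 is not tested there. Pik3r1 had log2 fold changes of 0.071 to 0.19 with each library left out in turn, and passed the threshold without Scr replicate 1 (0.19, adjusted p = 0.0476, limma-trend). The number of Slc2a4 regulators called higher was 0 with a maximum RPKM of at least 4. Replicate numbers did not pair the samples: deviations of same-numbered libraries correlated at -0.0236, -0.0155 and 0.0637, and not every library correlated best with its own number. With the replicate block 7 of the 10 genes were lower and 2 higher, and over all genes 3512 were lower and 3543 higher, against 3544 and 3569 without it. Of the 40 genes that the naming rule selects from the lists or as ratio partners, 37 had the same call in each setting that tested them. The planned edgeR test was not run, because whole reads could not be recovered for every gene. Of the values under 20, 88.8% to 90.5% in a library were whole reads within a tolerance of 0.01. Depth limits Slc2a4 in MICT1 KO libraries, and 3 libraries a group of one cell line do not cover other lines or other knockout pools.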
